A study of Mus musculus with 21 samples.

Results

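Chemokines are small secreted proteins that draw leukocytes and microglia along a concentration gradient. Here 10 chemokine genes were followed in the brains of GA-Camk2a mice and control mice: Ccl2, Ccl12, Ccl3, Ccl4, Ccl5, Ccl6, Ccl9, Cxcl10, Cxcl16 and Cx3cl1, out of 64361 genes in the count table. They were picked by symbol, with their genotype differences in these same libraries already known. The differences between GA-Camk2a and control are therefore given as a description and without p-values. How many of the 10 were called is given beside the share of all genes, and describes the selection. Fits and permutation values are given for the 2 regions against each other, also in their genotype differences, for the 2 regions of the same animal and for pathway genes outside the 10. The levels in all 4 groups, their spread and earlier results of these libraries were known when the 10 genes and the pathway lists were chosen, so their p-values describe these libraries and are not independent evidence.

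The data are bulk prime-seq libraries, a barcoded method that reads RNA from its 3' end, made from cortex and hippocampus of 11 mice. GA-Camk2a mice carried a floxed transgene for poly-GA, the glycine-alanine repeat protein made from expanded C9orf72, fused to GFP and switched on by Camk2a-Cre in excitatory neurons. Controls are labelled only as such. The study names control animals of this line Camk2a in another assay, and the alleles of the control mice sequenced are not given in the labels. Cortex was sequenced from 5 control and 6 GA-Camk2a mice and hippocampus from 4 control and 6 GA-Camk2a mice, so that 10 animals gave both regions. All animals were killed at 30 to 40 weeks. The line was kept on a C57BL/6J background and the GA-Camk2a mice came from 2 litters and were at about the age at which the line reaches its humane endpoint. Mice were perfused with PBS, which lowers but need not clear blood from the tissue. Libraries are named below by region, genotype and mouse number.

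The libraries held 1048201 to 5888102 counts, so that 3 counts corresponded to 0.510 to 2.86 CPM, the count scaled by its library's total. Most of the 10 genes were near that level in controls. The GFP row of the table held 0 to 4 counts per library and had counts in control libraries too, so it did not check the genotype labels. Markers of the hippocampus summed to 27.9 to 38.5 CPM in cortex libraries and 118 to 229 CPM in hippocampus libraries, as the region labels state. Summed markers of striatum were 288 to 412 CPM in control cortex and 102 to 167 CPM in GA-Camk2a cortex. All 4 were called lower there (edgeR, adjusted p under 0.05), against 6.17% of all genes. For 3 of the 4 the genotype difference was called higher in hippocampus than in cortex, against 0.149% of all genes. A difference in the tissue dissected and one in expression cannot be told apart, which limits the cortical and regional values below. Cortex markers were at 138 to 220 CPM in 7 hippocampus libraries but, through Rorb, at 1501, 5342 and 4464 CPM in those of control 11 and GA-Camk2a 16 and 30. The hippocampus library of GA-Camk2a mouse 41 stood apart in blood-cell genes, with monocyte and neutrophil markers at 572 CPM against 18.4 to 29.4 CPM in the other 5 of its group.

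Chemokines are classed by the spacing of their first cysteines, which shape the fold that receptors recognise. In the CC class these residues are adjacent, in the CXC class 1 residue separates them, and in CX3C, whose one mammalian member is Cx3cl1, 3 residues do. CC chemokines act mainly on CCR receptors of monocytes, macrophages, microglia and T cells, Cxcl10 acts on Cxcr3, Cxcl16 on Cxcr6, and Cx3cl1 on Cx3cr1. In the brain Cx3cl1 is a membrane-bound protein of neurons that can be shed, and its receptor sits on microglia. Most of the others are known as products of activated microglia, astrocytes or infiltrating leukocytes, induced through NF-kB and interferon signalling.

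The coding stretches below show these class-defining cysteine codons in capitals. They come from one protein-coding GENCODE vM21 transcript of each gene (GRCm38, sense strand), and are shown for some of the CC members and for one member of each remaining class.
Ccl4: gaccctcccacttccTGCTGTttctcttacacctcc
Ccl6: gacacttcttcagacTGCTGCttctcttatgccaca
Ccl9: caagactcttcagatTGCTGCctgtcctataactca
Cxcl10: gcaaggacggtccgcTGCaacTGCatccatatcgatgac
Cx3cl1: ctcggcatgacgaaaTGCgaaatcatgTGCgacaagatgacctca

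Over their whole coding sequence Ccl3 and Ccl4 were 68.1% identical and Ccl6 and Ccl9 64.6%, the highest values among the 7 CC members. No window of 50 bases of Ccl2, Ccl12, Ccl3, Ccl4, Ccl5, Ccl6 or Cx3cl1 occurred in a transcript of another gene. Cxcl10 shared 8.04% of its windows with Art3 and Cxcl16 shared 19% with Zmynd15, genes that overlap them on the opposite strand. In Ccl9, 59 of 2957 windows, or 2%, occurred in transcripts of 463 other genes. Ccl2 and Ccl6 also lie across from genes on the opposite strand, Gm17268 and E230016K23Rik. The use of strand in the counting is not given in the sources used here, so the counts of Ccl2, Ccl6, Cxcl10 and Cxcl16 are uncertain to that extent. Art3 was at 5.06 to 8.59 CPM in cortex and 3.25 to 8.08 CPM in hippocampus, with GA-Camk2a and control libraries overlapping in both regions. Zmynd15 stayed at or below 3.04 CPM and E230016K23Rik at or below 1.47 CPM in every library.

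Upstream sequences of 6 of the 10 genes were found in a RefSeq promoter table (GRCm38.p6, 250 bases before the annotated start). Searched on both strands, the interferon-stimulated response element, read as GAAA, any 2 bases and GAAA, occurred in 2.98% of 32851 such promoters, the kappaB motif, read as GGG, any 2 bases, TT, any base and CC, in 4.11% and the AP-1 motif TGANTCA, which reads the same on both strands, in 6.75%. Cxcl10 held 1 match to each and Ccl9 held a kappaB match on the opposite strand and an AP-1 match. Ccl12, Ccl3, Ccl6 and Cx3cl1 held none. The matches did not overlap each other, and they are a description of letters, not of bound sites. The promoters of Cxcl10, of Ccl9 and, as the member that was lower in GA-Camk2a mice, of Cx3cl1 are shown with the matches in capitals.
Cxcl10, chr5:92348890-92349139, minus strand: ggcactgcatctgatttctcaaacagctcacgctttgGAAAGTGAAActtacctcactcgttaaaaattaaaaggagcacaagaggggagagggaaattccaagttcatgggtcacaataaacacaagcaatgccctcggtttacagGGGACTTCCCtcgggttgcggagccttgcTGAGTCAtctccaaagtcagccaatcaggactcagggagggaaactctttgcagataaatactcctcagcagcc
Ccl9, chr11:83578637-83578886, minus strand: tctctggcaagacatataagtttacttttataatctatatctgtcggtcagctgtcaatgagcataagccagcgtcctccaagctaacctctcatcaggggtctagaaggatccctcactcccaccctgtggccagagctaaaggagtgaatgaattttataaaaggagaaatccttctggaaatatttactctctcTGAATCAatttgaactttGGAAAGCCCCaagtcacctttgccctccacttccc
Cx3cl1, chr8:94771930-94772179, plus strand: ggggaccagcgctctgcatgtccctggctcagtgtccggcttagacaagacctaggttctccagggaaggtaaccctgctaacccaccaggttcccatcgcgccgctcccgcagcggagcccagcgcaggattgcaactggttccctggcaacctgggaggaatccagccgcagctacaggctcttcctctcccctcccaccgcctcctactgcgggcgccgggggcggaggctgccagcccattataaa

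In Cxcl10 the matches began 213 bases (interferon element), 103 bases (kappaB) and 74 bases (AP-1) before the start, and in Ccl9 at 53 bases (AP-1) and 35 bases (kappaB).

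Across the 10 genes, 9 had a higher mean in GA-Camk2a mice than in controls in both regions, and Cx3cl1 had a lower one. GA-Camk2a and control libraries did not overlap for 9 of the 10 genes in cortex (8 higher and 1 lower) and for 8 of the 10 in hippocampus (8 higher). Among all genes tested, 6.17% did not overlap in cortex (3.5% higher, 2.67% lower) and 9.62% in hippocampus (5.6% higher, 4.02% lower). Not every member passed the count filter: 7 were tested in cortex, where Ccl2, Ccl9 and Cxcl10 fell under it, and all 10 in hippocampus. With edgeR and an adjusted p under 0.05, 7 of these 7 were called in cortex (6 higher, 1 lower) and 9 of 10 in hippocampus (8 higher, 1 lower), against 12.5% of 13058 genes in cortex (6.35% higher, 6.17% lower) and 10.9% of 14884 in hippocampus (4.97% higher, 5.97% lower). These counts describe the selection: the genes were chosen from this contrast, and the low ones passed the filter because they were high in GA-Camk2a mice. In bulk tissue, a change in the number of cells of a type and a change in RNA per cell cannot be told apart.

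**Figure D1:**
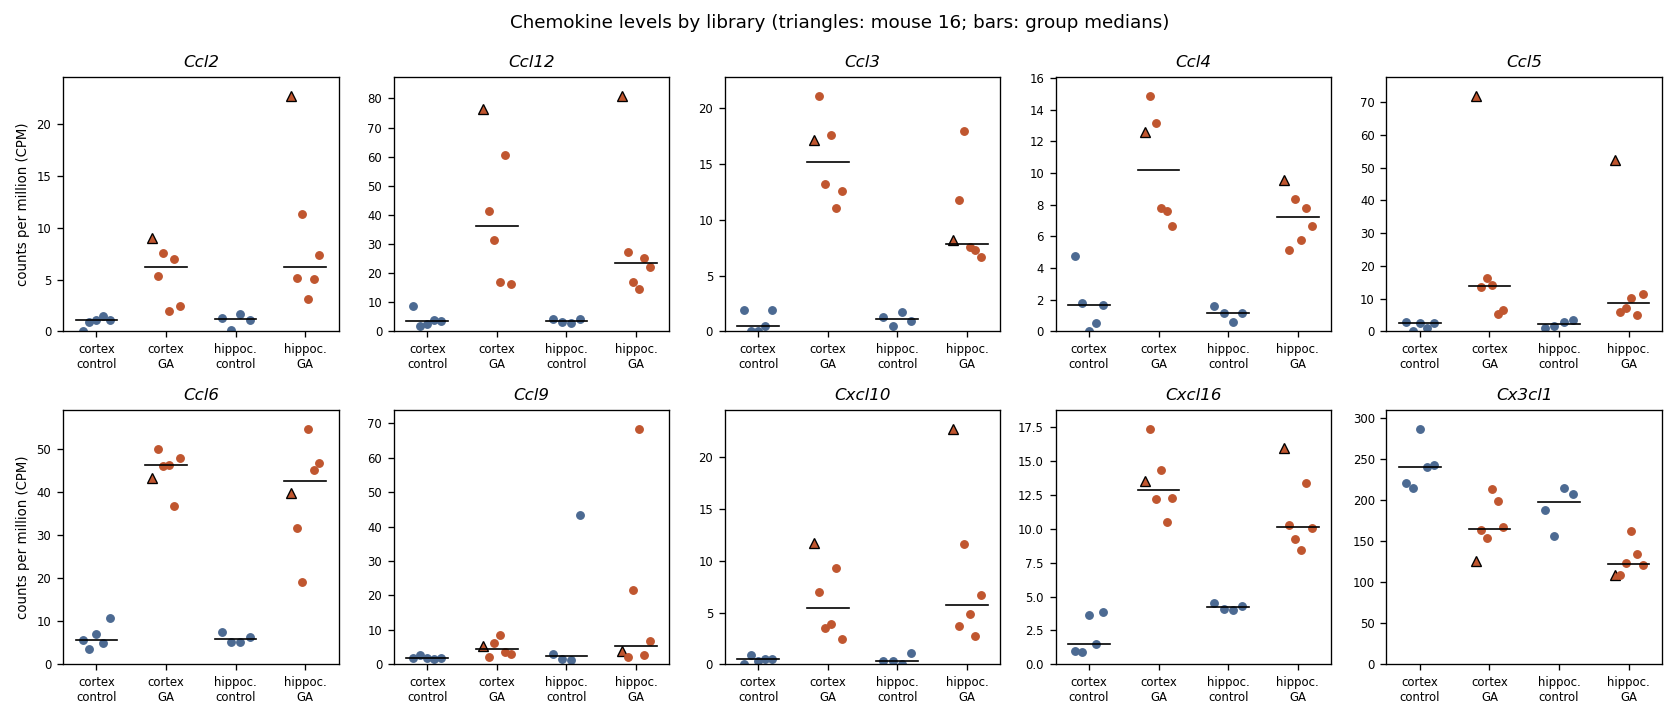
Level of each of the 10 chemokine genes in CPM (linear axis from 0) in all 21 libraries, grouped by region and genotype, with 1 point per library, a bar at the group median and a triangle for mouse 16. Mouse 16 was the highest GA-Camk2a animal in both regions for Ccl2, Ccl12, Ccl5 and Cxcl10, and Ccl9 was high in 3 hippocampus libraries of both genotypes.

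Ccl2 and Ccl12 are monocyte chemoattractants that act through Ccr2. Ccl2 was barely counted in controls. In control cortex it was at 0, 0.908, 1.10, 1.52 and 1.11 CPM in mice 11, 20, 31, 37 and 38, a total of 11 counts. In GA-Camk2a cortex it ran from 1.95 through a median of 6.18 to 8.99 CPM, so that each of the 6 libraries lay above every control. The mean was 6 times that of controls.

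In hippocampus Ccl2 was at 1.30, 0.170, 1.71 and 1.14 CPM in control mice 11, 20, 31 and 37. In GA-Camk2a mice it ran from 3.11 through 6.24 to 22.7 CPM, again without overlap. The fitted log2 difference was 3.30 ± 0.58 (SE), and in cortex, fitted without the count filter, 2.28 ± 0.44. The SE of a fit without the filter does not compare with that of a filtered fit. For Ccl5 in cortex it was 0.29 unfiltered and 0.60 filtered, and for Ccl6 in cortex 0.19 and 0.17.

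Ccl12 in control cortex was at 8.59, 1.82, 2.57, 4.05 and 3.602 CPM, and in GA-Camk2a cortex it ran from 16.45 through 36.3 to 76.4 CPM. In control hippocampus it was at 4.22, 3.23, 2.85 and 4.33 CPM, and in GA-Camk2a hippocampus it ran from 14.6 through 23.55 to 80.8 CPM. The groups did not overlap in either region, and the log2 difference was 3.33 ± 0.33 in cortex and 3.02 ± 0.49 in hippocampus. The spread among GA-Camk2a animals was wide, with the highest library 4.65 times the lowest in cortex and 5.52 times in hippocampus. Most of the hippocampal spread came from mouse 16, since the other 5 ended at 27.2 CPM, and without it the hippocampal difference was 2.37.

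Ccl3 and Ccl4, the macrophage inflammatory proteins, are neighbouring genes. Ccl3 was at 1.91, 0, 0, 0.506 and 1.94 CPM in control cortex and ran from 11.1 through 15.1 to 21.05 CPM in GA-Camk2a cortex, a ratio of means of 17.7. In hippocampus it was at 1.30, 0.510, 1.71 and 0.912 CPM in controls and ran from 6.67 through 7.85 to 17.9 CPM in GA-Camk2a mice. The groups did not overlap, and the log2 difference was 3.945 ± 0.40 in cortex and 3.30 ± 0.41 in hippocampus. Without cortex control 38 the cortical value was 4.91, and in batch 2 alone it was 5.06.

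Ccl4 was at 4.77, 1.82, 0, 0.506 and 1.66 CPM in control cortex and ran from 6.65 through 10.2 to 14.9 CPM in GA-Camk2a cortex. In hippocampus it was at 1.62, 1.19, 0.570 and 1.14 CPM in controls and ran from 5.14 through 7.24 to 9.57 CPM in GA-Camk2a mice. It also did not overlap, with a log2 difference of 2.89 ± 0.45 in cortex and 2.54 ± 0.31 in hippocampus. Unlike Ccl12, both genes were even among GA-Camk2a cortices, with a coefficient of variation of 24.4% for Ccl3 and 33.5% for Ccl4 against 59.6% for Ccl12. The difference in spread was not tested.

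Ccl5, a chemoattractant best known from T cells and also made by activated microglia, was far higher in one GA-Camk2a animal than in the others. In control cortex it was at 2.86, 0, 2.57, 1.01 and 2.49 CPM, and in GA-Camk2a cortex it ran from 5.25 through 13.96 to 71.9 CPM. In control hippocampus it was at 0.974, 1.53, 2.85 and 3.42 CPM, and in GA-Camk2a hippocampus it ran from 5.02 through 8.68 to 52.5 CPM. Both maxima were mouse 16, and without it the GA-Camk2a libraries ended at 16.2 CPM in cortex and 11.3 CPM in hippocampus, still above every control. The log2 difference was 3.16 ± 0.60 in cortex and 2.76 ± 0.65 in hippocampus, and without mouse 16 it was 2.34 and 1.82.

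T cell markers did not set mouse 16 apart. Summed over 9 markers they were at 28.8 CPM in its cortex, inside the 24.3 to 33.8 CPM of the GA-Camk2a cortices, and at 12.8 CPM in its hippocampus, inside 11.5 to 20.0 CPM. Summed NK cell markers were at 3.595 and 2.13 CPM there, also inside the range of the group. Between genotypes, the T cell sum was 7.98 to 10.3 CPM in control hippocampus and thus below every GA-Camk2a hippocampus. In cortex it was higher in 4 of 5 controls (41.6 to 50.6 CPM) than in any GA-Camk2a library, with Trbc2 and Cd4 making up most of it, and Cd8a was at 0 to 0.700 CPM in all cortex libraries. The part of these cells in the Ccl5 values was not tested.

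Ccl6 and Ccl9 are rodent CC chemokines that act on Ccr1, and despite their related sequences they differed in pattern. Ccl6 was at 5.72, 3.63, 6.96, 5.06 and 10.8 CPM in control cortex and ran from 36.7 through 46.1 to 49.9 CPM in GA-Camk2a cortex, with a coefficient of variation of 10.3%, the lowest of the 10 genes in that group. In hippocampus it was at 7.47, 5.27, 5.13 and 6.38 CPM in controls and ran from 19.1 through 42.4 to 54.6 CPM in GA-Camk2a mice. The groups did not overlap, and the log2 difference was 2.65 ± 0.17 in cortex and 2.63 ± 0.27 in hippocampus.

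Ccl9 was the one member whose genotypes overlapped in both regions. In control cortex it was at 1.91, 2.73, 1.83, 1.52 and 1.94 CPM, and in GA-Camk2a cortex it ran from 2.06 through 4.45 to 8.45 CPM, with 5 of 6 libraries above every control. In hippocampus controls 11, 20, 31 and 37 were at 2.92, 1.70, 1.14 and 43.3 CPM, and GA-Camk2a mice 16, 23, 30, 34, 35 and 41 at 3.90, 2.20, 21.5, 68.3, 2.79 and 6.67 CPM. Control 37 and GA-Camk2a 30 and 34 were therefore far above all others, and 1 of 6 GA-Camk2a libraries exceeded every control. The log2 difference in hippocampus was 0.41 ± 0.70, and it was 2.43 without control 37, -0.22 without control 11 and -0.48 without GA-Camk2a 34.

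The same 3 hippocampus libraries were high in unrelated genes. Prkch, a protein kinase C gene and the gene most like Ccl9 over the 21 libraries (Pearson r 0.909), was at 79.8, 31.7 and 60.3 CPM in control 37 and GA-Camk2a 30 and 34, against 2.85 to 5.88 CPM in the other 7 hippocampus libraries. Zfp266, a zinc finger gene (r 0.880), was at 136, 79.4 and 128 CPM there and at 18.1 to 28.2 CPM in the other 7. Gm9013 (r 0.883) was at 46.7, 15.2 and 34.15 CPM against 1.62 to 3.34 CPM. In the cortex libraries of the same 3 mice Prkch was at 5.57, 7.09 and 7.80 CPM, and the 3 hippocampus libraries share batch 1 with 2 others, control 11 and GA-Camk2a 16, that were not high. What the shared 2% of Ccl9 windows adds to these counts was not tested.

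**Figure D2:**
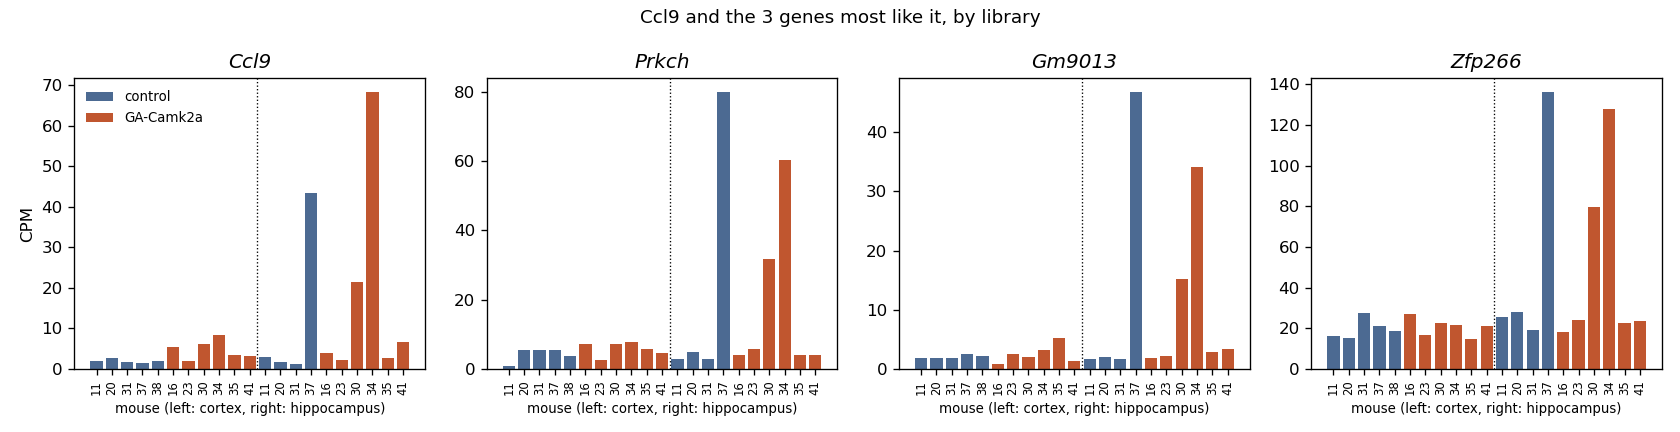
CPM of Ccl9, Prkch, Gm9013 and Zfp266 in the 21 libraries (bars from 0), labelled by mouse number, cortex left and hippocampus right of the dotted line, coloured by genotype. The tallest bars of all 4 genes are the hippocampus libraries of control 37 and GA-Camk2a 30 and 34, at 43.3, 21.5 and 68.3 CPM for Ccl9.

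Cxcl10, an interferon-induced ligand of Cxcr3, was close to absent in controls. It was at 0, 0.908, 0.366, 0.506 and 0.554 CPM in control cortex, 5 counts in all, and ran from 2.45 through 5.46 to 11.7 CPM in GA-Camk2a cortex. In hippocampus it was at 0.325, 0.340, 0 and 1.14 CPM in controls, 8 counts in all, and ran from 2.79 through 5.78 to 22.7 CPM in GA-Camk2a mice. The groups did not overlap. The ratio of means was 13.5 in cortex and 19.3 in hippocampus, where the log2 difference was 3.92 ± 0.58. With so few control counts, the size of these ratios is less certain than their direction.

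Cxcl16, a ligand of Cxcr6 that is made as a membrane protein, was at 0.954, 0.908, 3.66, 1.52 and 3.88 CPM in control cortex and ran from 10.49 through 12.9 to 17.3 CPM in GA-Camk2a cortex. In hippocampus controls were closely grouped at 4.55, 4.08, 3.99 and 4.33 CPM, and GA-Camk2a mice ran from 8.43 through 10.15 to 15.95 CPM. The groups did not overlap, with a log2 difference of 2.29 ± 0.27 in cortex and 1.36 ± 0.24 in hippocampus.

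Cx3cl1 was counted most deeply, with 9032 counts over all libraries, and was the one member that was lower in GA-Camk2a mice. In control cortex it was at 220, 214, 286, 241 and 243 CPM, and in GA-Camk2a cortex it ran from 126 through 165 to 214 CPM. The groups touched without overlapping, since the highest GA-Camk2a library (213.7 CPM) lay just under the lowest control (214.4 CPM). In hippocampus it was at 188, 157, 214 and 207 CPM in controls and ran from 109 through 122 to 163 CPM in GA-Camk2a mice, with 5 of 6 libraries below every control. The log2 difference was -0.50 ± 0.11 in cortex and -0.63 ± 0.11 in hippocampus, or 0.707 and 0.661 as ratios of means.

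Markers of excitatory neurons moved the same way. Their summed level (4 genes) was 372 to 585 CPM in control and 318 to 483 CPM in GA-Camk2a cortex, and 516 to 623 CPM in control and 253 to 366 CPM in GA-Camk2a hippocampus. Summed microglia markers (8 genes) moved the other way, from 122 to 138 CPM up to 148 to 221 CPM in cortex and from 131 to 152 CPM up to 159 to 232 CPM in hippocampus. Summed astrocyte markers (5 genes) were at 1267 to 1960 CPM in control and 1924 to 3161 CPM in GA-Camk2a cortex, and at 1674 to 1997 and 2933 to 4290 CPM in hippocampus. Not every gene of a sum was called. Of 8 microglia markers 4 were called higher in cortex and 3 in hippocampus, and of 5 astrocyte markers 2 and 3. None of them was called lower (edgeR, adjusted p under 0.05). Among all genes 6.35% were called higher in cortex and 4.97% in hippocampus. Of 4 excitatory neuron markers 3 were called lower in cortex and 2 in hippocampus, against 6.17% and 5.97% of all genes. Markers of border macrophages (5 genes), which lie around vessels and in the meninges, were low but did not overlap, at 6.23 to 10.6 CPM in control and 11.1 to 17.7 CPM in GA-Camk2a cortex and at 7.47 to 11.04 and 13.75 to 34.5 CPM in hippocampus. Of these 5 genes none passed the filter in cortex and 2 did in hippocampus, where Mrc1 was at 0 to 2.60 CPM in controls and 3.99 to 11.75 CPM in GA-Camk2a mice (log2 difference 2.05 ± 0.42, edgeR, adjusted p = 0.00501), and so passed the filter through GA-Camk2a libraries alone. Blood markers (3 genes) were at 379 to 573 CPM in control and 400.5 to 1380 CPM in GA-Camk2a cortex and at 320.3 to 488 and 412 to 3160 CPM in hippocampus, overlapping in both regions, and the haemoglobin gene Hba-a1 was higher by 0.69 ± 0.18 in cortex (edgeR, adjusted p = 0.0142) and differed by 1.22 ± 0.45 in hippocampus (adjusted p = 0.101). With 1 cortex library left out Hba-a1 was called in 9 of 11 fits (edgeR, adjusted p up to 0.0778 without cortex control 31). The part of the cell types given here in the chemokine values was not tested.

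**Figure D3:**
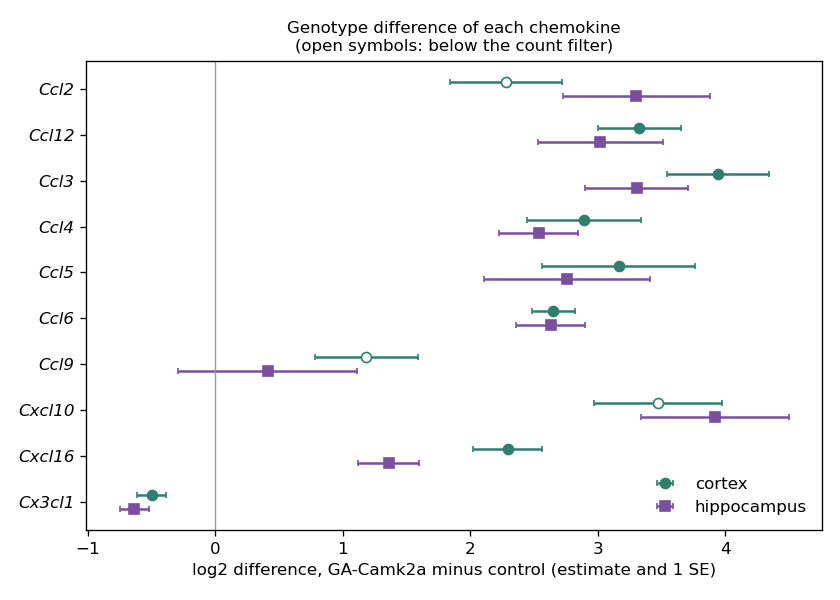
Fitted log2 difference between GA-Camk2a and control mice (horizontal axis, estimate with 1 SE) for the 10 chemokine genes in cortex (circles) and hippocampus (squares), with open symbols for genes below the count filter. Open symbols come from a fit without the filter, and their SE do not compare with those of filled symbols. All estimates lie above 0 except those of Cx3cl1 at -0.50 and -0.63, and that of Ccl9 in hippocampus, 0.41, is within 1 SE of 0.

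Whether the genotype difference itself differed between the regions was tested with the interaction term over all 21 libraries. This fit had no mouse term, so the 2 libraries of a mouse were treated as independent. None of the 10 genes passed (edgeR, adjusted p 0.328 or higher), with 1 of 10 at an unadjusted p under 0.05 and 0 of 10 passing with DESeq2 or limma-voom, while 0.4% of 14751 genes passed. Cxcl16 had the lowest p, with a difference smaller in hippocampus by 0.98 ± 0.37 on the log2 scale (adjusted p = 0.328). The 95% interval for Cx3cl1 ran from -0.50 to 0.20 and that for Ccl6 from -0.81 to 0.72. For Ccl5 it ran from -3.05 to 2.27 and for Cxcl10 from -2.49 to 3.33, so large regional differences in these genes are not excluded by this fit. With the mouse as a replicate block, which pairs the regions, 0 of the 10 genes and 70 of all genes passed. Cxcl16 was then at -1.445 (edgeR, adjusted p = 0.193), Ccl3 at -1.81 (0.525) and Ccl5 at -1.15 (0.528).

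The regions were also compared within each genotype. In control mice 4 of the 10 genes could be tested, and Cx3cl1 was lower in hippocampus than in cortex by 0.38 ± 0.10 on the log2 scale (edgeR, adjusted p = 0.0183). This call was lost without cortex control 37 (adjusted p = 0.0645), hippocampus control 11 (0.0811) or hippocampus control 20 (0.0911), with no count filter (0.0556), and in batch 1 alone (0.17) and batch 2 alone (0.0935). Ccl12 (0.00 ± 0.24), Ccl6 (-0.17 ± 0.25) and Cxcl16 (0.71 ± 0.34, adjusted p = 0.178) did not pass. Among all genes 16.3% passed (8.69% higher and 7.6% lower in hippocampus).

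In GA-Camk2a mice all 10 genes could be tested, and 2 passed, against 33.2% of all genes (17.3% higher and 15.9% lower in hippocampus). Cx3cl1 was again lower in hippocampus, by 0.50 ± 0.12 on the log2 scale (edgeR, adjusted p = 0.00483), with batch 1 and batch 2 giving -0.47 (adjusted p = 0.0468) and -0.55 (0.0633). Ccl9 was higher in hippocampus by 2.14 ± 0.62 (adjusted p = 0.0139), a value that rests on GA-Camk2a 30 and 34: with either library left out Ccl9 fell under the count filter, and DESeq2 and limma-voom gave adjusted p of 0.137 and 0.0744. Ccl3 (-0.61 ± 0.25, adjusted p = 0.0624) and Ccl4 (-0.52 ± 0.24, adjusted p = 0.104) did not pass, but both were near the threshold. Ccl3 passed without hippocampus GA-Camk2a 30, at -0.98 (adjusted p = 0.00385), without cortex GA-Camk2a 30 or 41 (0.0493 and 0.0458), with limma-voom (0.0445), with no count filter (0.0394) and without the 3 hippocampus libraries high in Ccl9 (0.0191). Ccl4 passed without cortex GA-Camk2a 41, at -0.67 (adjusted p = 0.0396). For Ccl2, Ccl12, Ccl5, Ccl6, Cxcl10 and Cxcl16 the adjusted p was 0.149 or higher.

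Some of these values turned on mouse 16 or on the batch. Ccl12 differed by -0.35 ± 0.41, and with the mouse as a replicate block, which pairs the regions, by -0.51 (edgeR, adjusted p = 0.0496). Without hippocampus GA-Camk2a 16 it differed by -1.196 (adjusted p = 0.00105), and it was 0.45 (adjusted p = 0.58) in batch 1 and -1.57 (adjusted p = 0.000286) in batch 2. Ccl5 was at -1.44 (adjusted p = 0.0384) without the hippocampus library of mouse 16 and at 0.78 (adjusted p = 0.228) without its cortex library. In batch 1 Ccl5 was at 0.86 and Cxcl10 at 1.59 (adjusted p = 0.314 and 0.0363), and in batch 2 they were at -2.35 and -1.36 (adjusted p = 0.033 and 0.0619). Ccl2 was at 1.13 (adjusted p = 0.0389) without hippocampus GA-Camk2a 34 and at 0.84 (adjusted p = 0.0214) with no count filter. The regions of mouse 16 were in different batches, so animal and batch are not separated in these values.

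By group mean the order of Cx3cl1 was control cortex, control hippocampus, GA-Camk2a cortex and GA-Camk2a hippocampus, and the middle neighbours overlapped between libraries (157 to 214 and 126 to 214 CPM).

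The 6 GA-Camk2a mice gave both regions, which allowed asking whether an animal high in one region was high in the other. Over the 10 genes no relation passed after adjustment (exact two-sided permutation of 720 pairings, adjusted p 0.139 or higher). The largest Pearson r of log2 CPM were 0.845 for Ccl5 (rho 0.600, p = 0.0639 and 0.242, exact permutation), 0.842 for Ccl9 (rho 0.83, p = 0.0347 and 0.0583, exact permutation), 0.838 for Cx3cl1 (rho 0.714, p = 0.0292 and 0.136, exact permutation) and 0.757 for Ccl12 (rho 0.771, p = 0.0417 and 0.103, exact permutation). Adjusted over the 10 genes these r had p of 0.16, 0.139, 0.139 and 0.139 (exact permutation). Without the 2 mice farthest from the cortical median r was 0.556 for Ccl9, 0.622 for Cx3cl1 and 0.873 for Ccl12, and it turned to -0.643 for Ccl5, whose relation thus rested on mice 16 and 35.

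**Figure D4:**
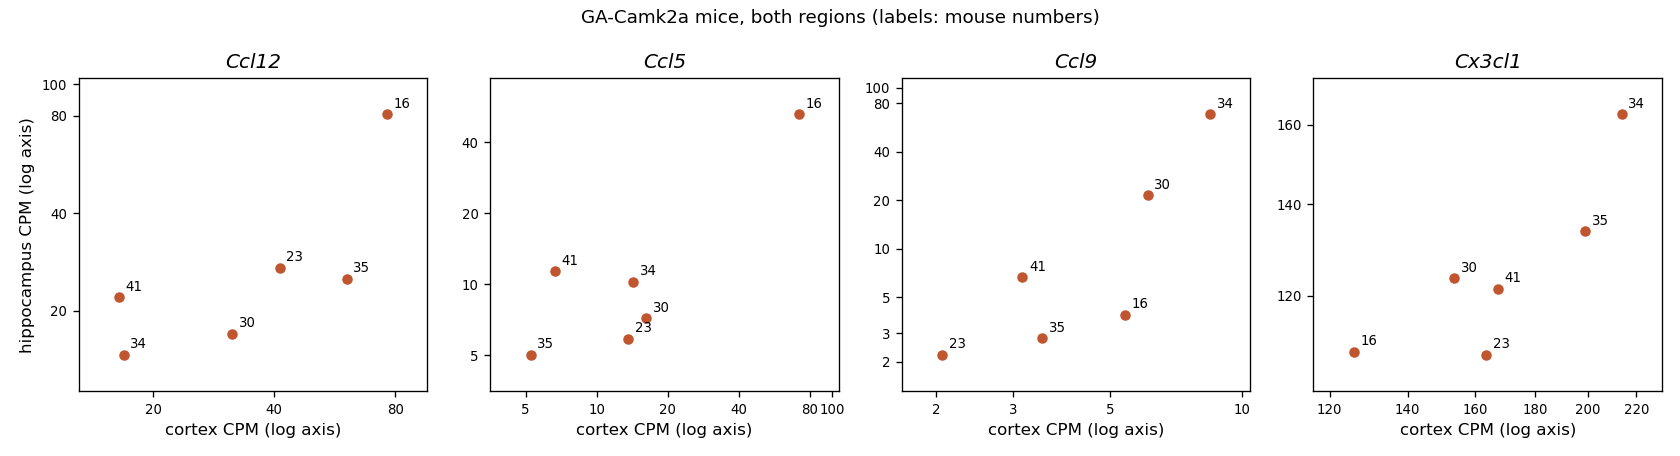
CPM in cortex (horizontal) against hippocampus (vertical, both log axes) of Ccl12, Ccl5, Ccl9 and Cx3cl1 in the 6 GA-Camk2a mice, labelled by number. Mouse 16 is at the top right for Ccl12 and Ccl5, and mouse 34 for Ccl9 and Cx3cl1.

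Mouse 16 held the highest GA-Camk2a value for 4 of the 10 genes in cortex and 6 of the 10 in hippocampus. In cortex mouse 23 held as many, those of Ccl3, Ccl4, Ccl6 and Cxcl16. The Cx3cl1 of mouse 16 was the lowest in cortex, at 126 CPM, and in hippocampus it was at 109 CPM, beside mouse 23 at 109 CPM. The hippocampus library of mouse 16 was also high in cortex markers, at 5342 CPM, as was that of mouse 30, at 4464 CPM. A link of this to their chemokine values was not tested. Mouse 34 was lowest for some members and highest for others. It held the highest value of 2 genes and the lowest of 1 in cortex, and the highest of 3 and the lowest of 3 in hippocampus. It had the lowest cortical Ccl2 (1.95 CPM), the lowest hippocampal Ccl2 (3.11 CPM), Ccl12 (14.6 CPM) and Cxcl16 (8.43 CPM), the highest Cx3cl1 (214 and 163 CPM) and Ccl9 (8.45 and 68.3 CPM) in both regions, and the highest hippocampal Ccl6 (54.6 CPM). After group means were subtracted, Ccl2 correlated with Cxcl10 (r 0.717) and Ccl12 with Ccl5 (r 0.583) over the 21 libraries, while Ccl2 with Ccl6 was at -0.198 and Ccl3 with Ccl6 at -0.0201. These values share the libraries and their depth and describe only this set.

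The genes whose log2 CPM was most like each member over the 21 libraries differed between members, although Ccl3 and Ccl4 shared a pair of them. Ccl2 and Cxcl10 were closest to interferon-induced genes, Ifit3b for Ccl2 (r 0.903) and Lgals3bp, Ifit3b and Ifit3 for Cxcl10 (r 0.936, 0.922 and 0.921), and Ccl12 was closest to the immunoproteasome subunit Psmb8 (r 0.953) and the cathepsin Ctss (r 0.941). Ccl4 was closest to Chil1 (r 0.935) and the microglial receptor Trem2 (r 0.924), and Ccl6 to the complement genes C1qb and C1qc (r 0.969 and 0.968). Ccl3 was closest to Cyb5r3 (r 0.935), followed by Chil1 (r 0.928) and Trem2 (r 0.926), Ccl5 to Lgals3 (r 0.899) and the interferon-induced Ifit1 (r 0.889), Cxcl16 to the MHC class I gene H2-K1 (r 0.925), and Cx3cl1 to the neuronal genes Egr4, Nrgn and Lingo1 (r 0.929, 0.920 and 0.919). After group means were subtracted these r fell, for example to 0.662 for Ccl2 with Ifit3b, to 0.601 for Ccl6 with C1qb and to 0.185 for Ccl3 with Trem2, so that much of the likeness was the shared difference between groups. For Ccl9 with Prkch r stayed at 0.909.

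The receptors of the 10 chemokines were mostly too low to test. Of 6 receptors examined, 1 passed the filter in each region. Cx3cr1, the microglial receptor of Cx3cl1, was at 23.9, 11.8, 21.6, 19.2 and 21.3 CPM in control cortex and 30.5 to 46.6 CPM in GA-Camk2a cortex, higher by 0.89 ± 0.15 on the log2 scale (edgeR, adjusted p = 0.000403). In hippocampus it was at 20.5, 19.0, 27.4 and 21.2 CPM in controls and 29.4 to 59.5 CPM in GA-Camk2a mice, higher by 0.93 ± 0.15 (adjusted p = 0.00108). Receptor and ligand thus differed in opposite directions between the genotypes.

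Ccr1 held 0 to 6 counts per library, Ccr2 1 to 10, Cxcr3 0 to 4 and Cxcr6 0 to 5, and Ccr3 had no counts in controls. These receptors fell under the count filter in both regions, so a change in them was not tested. Cxcr4, which binds Cxcl12 and is not a receptor of the 10, was at 0.974, 2.04, 1.71 and 2.05 CPM in control and 2.66 to 10.3 CPM in GA-Camk2a hippocampus, with a fitted log2 difference of 1.83 ± 0.36 (edgeR, adjusted p = 0.00382). It reached the filter's level of 3.94 CPM in 0 control and 4 GA-Camk2a libraries. Without 1 library it stayed above the filter in 6 of 10 fits and was called in each of these 6. Of the atypical receptors, which bind chemokines without signalling as the others do, 2 of 5 were tested in each region, and Ackr1 of venular endothelium fell by 0.57 ± 0.16 in cortex (adjusted p = 0.0248) and by 0.51 ± 0.15 in hippocampus (adjusted p = 0.0389). Its call held in 6 of 11 fits that left out 1 cortex library (adjusted p up to 0.0929) and in 3 of 10 in hippocampus (up to 0.131).

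The filter asked for 5.06 CPM in 5 cortex libraries or 3.94 CPM in 4 hippocampus libraries. Of the pathway genes called higher, 8 of 14 in cortex and 7 of 15 in hippocampus reached it in too few controls and passed it through the GA-Camk2a libraries, so their p and the counts they enter are given as a description. In cortex these were Ccl17, Pf4, Rac2, Myd88, Tnfrsf1a, Irf7, Irf8 and Irf9, and in hippocampus Ccl19, Pf4, Cxcr4, Pik3cg, Dock2, Rac2 and Irf7.

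Of 29 other chemokines, 7 were tested in each region. In cortex Cxcl14 rose by 0.44 ± 0.10 on the log2 scale (edgeR, adjusted p = 0.00362). Among those short of the filter in controls, the dendritic cell chemokine Ccl17 differed by 1.25 ± 0.37 (adjusted p = 0.0302) and Pf4 by 1.079 ± 0.31 (adjusted p = 0.0253). In hippocampus Ccl19 differed by 1.33 ± 0.38 (adjusted p = 0.0352) and Pf4 by 2.36 ± 0.71 (adjusted p = 0.0449), both again short of the filter in controls. Pf4 was at 96.7 CPM in hippocampus GA-Camk2a 41, the library high in blood-cell markers, against 3.29 to 11.7 CPM in the other 5, and without it the difference was 1.11 (adjusted p = 0.0457). The blood markers given above were also high there, at 3160 CPM, and in cortex GA-Camk2a 30 and 34, at 1017 and 1380 CPM. The summed border macrophage markers given above did not overlap between genotypes in either region. The part of blood or of border macrophages in Pf4 was not tested. With a single library left out Ccl17 was called in 5 of 11 fits (adjusted p up to 0.109), Pf4 in cortex in 6 of 11 (up to 0.119), Pf4 in hippocampus in 6 of 10 (up to 0.245) and Ccl19 in 4 of 10 (up to 0.167), and Cxcl14 in all 11. Among all genes 6.35% were called higher in cortex and 4.97% in hippocampus.

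Cx3cl1 and Cxcl16 can be released from the membrane by the proteases Adam10 and Adam17. Neither passed between genotypes in either region. Adam10 differed by -0.09 with a 95% interval from -0.38 to 0.21 in cortex and by -0.01 from -0.25 to 0.23 in hippocampus. For Adam17 the interval ran from -0.56 to 0.52 in cortex and from -0.0071 to 0.77 in hippocampus, where its adjusted p was 0.211 (edgeR).

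Genes that carry the signal from chemokine receptors rose in part. In cortex 2 of 10 tested were called higher, against 6.35% of all genes, the G protein subunit Gnai2 (log2 difference 0.54 ± 0.11, edgeR, adjusted p = 0.00201) and the leukocyte GTPase Rac2 (0.97 ± 0.23, adjusted p = 0.00673), the latter short of the filter in controls. In hippocampus 5 of 11 were called higher and 1 lower, against 4.97% and 5.97% of all genes. Gnai2 rose by 0.41 ± 0.08 (adjusted p = 0.00362) and Gnai3 by 0.42 ± 0.12 (0.0382), and Gnai1 fell by 0.33 ± 0.09 (0.0252). Short of the filter in controls, Dock2 differed by 1.68 ± 0.30 (adjusted p = 0.00222), Rac2 by 1.62 ± 0.31 (0.00345) and Pik3cg by 1.495 ± 0.34 (0.0107). With 1 hippocampus library left out Gnai1 was called in 6 of 10 fits (adjusted p up to 0.106), Gnai3 in 3 of 10 (up to 0.14) and Pik3cg in 5 of the 6 in which it passed the filter (up to 0.0654).

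Of the NF-kB pathway, 11 of 21 genes were tested in cortex and 3 were called higher, against 6.35% of all genes. These were the inhibitor Nfkbia (log2 difference 0.71 ± 0.14, edgeR, adjusted p = 0.00167), the adaptor Myd88 (1.23 ± 0.29, adjusted p = 0.00671) and the TNF receptor Tnfrsf1a (1.05 ± 0.24, adjusted p = 0.00494), the latter 2 short of the filter in controls. In hippocampus 2 of 14 rose, against 4.97% of all genes, Nfkbia by 0.73 ± 0.14 (adjusted p = 0.00291) and Tnfrsf1a by 0.94 ± 0.24 (adjusted p = 0.0198, called in 6 of 10 fits without 1 library, up to 0.103). Of the DNA-binding subunits, Rel in hippocampus had the lowest adjusted p, at 0.74 ± 0.25 (adjusted p = 0.0745), and none passed in either region. No tested gene of the list was called lower.

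Of 13 interferon signalling genes, 11 were tested in cortex, where 5 were called higher and none lower, against 6.35% and 6.17% of all genes. The receptors Ifnar2 and Ifngr1 rose by 0.72 ± 0.17 (log2, edgeR, adjusted p = 0.00618) and 0.57 ± 0.15 (0.0118). Short of the filter in controls, Irf7 differed by 2.48 ± 0.41 (adjusted p = 0.000243), Irf8 by 1.68 ± 0.21 (9.93e-06) and Irf9 by 1.13 ± 0.24 (0.00331). In hippocampus 4 of 13 were called higher and 1 lower, against 4.97% and 5.97% of all genes. Irf8 rose by 1.49 ± 0.17 (adjusted p = 5.36e-05), Irf9 by 1.44 ± 0.19 (0.000211) and Ifngr1 by 0.53 ± 0.16 (0.0435), Ifngr2 fell by 0.35 ± 0.10 (0.0299), and Irf7, short of the filter in controls, differed by 2.37 ± 0.42 (0.00196). Irf7, the interferon-induced factor that amplifies the response, was at 26.1 CPM in cortex and 21.3 CPM in hippocampus of mouse 16, against up to 15.2 and 8.92 CPM in the other GA-Camk2a mice. Its controls were at 0 to 5.72 CPM. Irf8 is also a microglial gene, and the summed microglia markers moved with it as given above. With 1 library left out Ifngr1 and Ifngr2 were called in 3 and 5 of 10 hippocampus fits (adjusted p up to 0.15 and 0.1), and Ifngr1 in 10 of 11 cortex fits (up to 0.0522 without cortex control 31).

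**Figure D5:**
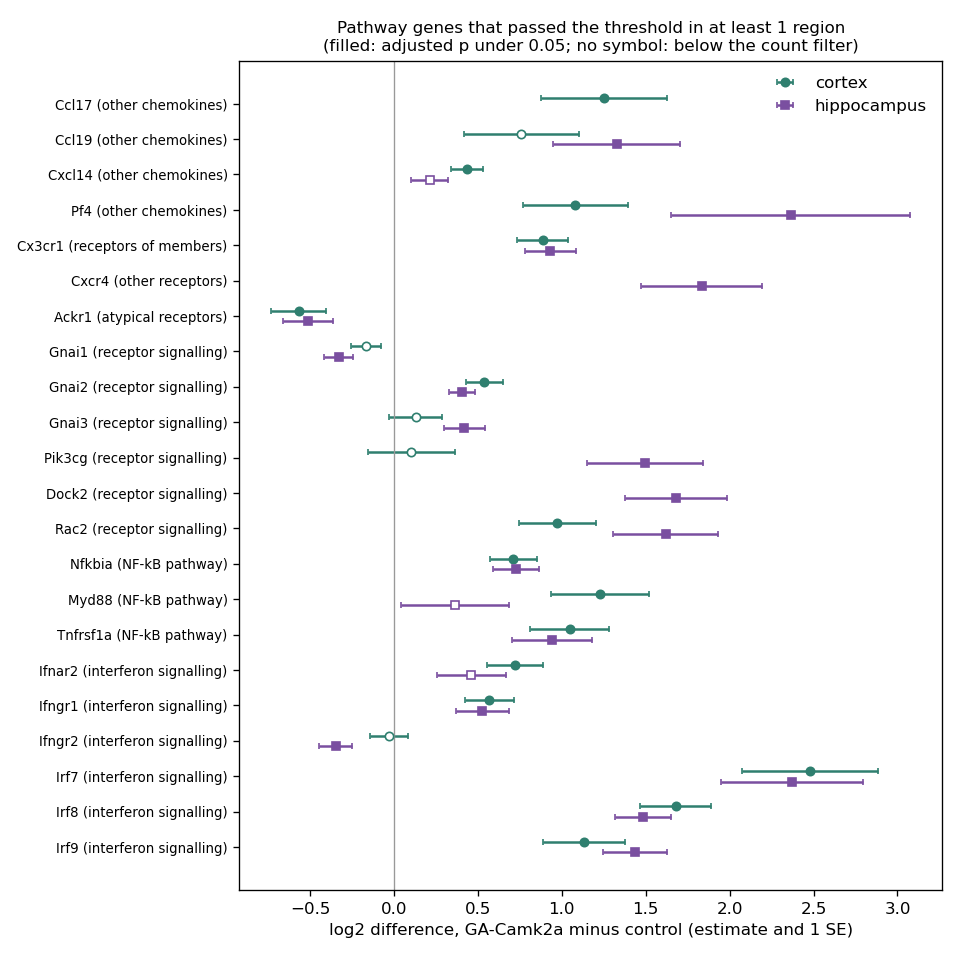
Log2 difference between GA-Camk2a and control mice (horizontal axis, estimate with 1 SE) of the pathway genes outside the 10 that passed in at least 1 region, cortex as circles and hippocampus as squares, filled where the adjusted p was under 0.05. Irf7 is farthest to the right in cortex at 2.48, and Ackr1, Gnai1 and Ifngr2 are the genes below 0 that passed.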

How the data were processed

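Cortex and hippocampus libraries of 11 mice were made with prime-seq by the authors, who deposited 1 table of raw counts per gene. Per the labels their notes name FastQC 0.11.8, cutadapt 1.12, STAR and DESeq2 1.44 with build mm39, and the study's reporting summary names zUMIs. Whether the deposited counts are molecules or reads, and the use of strand and introns, is not given in the sources used here. Symbols matched 43308 of 64362 rows, which held 96.1% of counts. The GFP row was kept out of library sizes and tests. The table's coordinates were not used, and sequences came from GENCODE vM21 and RefSeq on GRCm38.

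CPM is count over the total. Tests used edgeR 4.0.16 in R 4.3.3 (quasi-likelihood F-test, TMM, filterByExpr with a minimum count of 10, library sizes summed over the genes kept, batch as a term, Benjamini-Hochberg over all genes tested). The SE of a log2 difference was its size over the square root of F, and 95% intervals use the t quantile at the test's degrees of freedom. The method was tested on simulated counts. Alternatives were other scalings, filters, DESeq2 1.42.0, limma-voom (limma 3.58.1), no batch term, thinning to the smallest library, 1 batch, and leaving out each library. Named were the 10 members, list genes that passed, receptors under the filter, and for each member the 3 genes of average log2 CPM of at least 3 with the highest r (prior count 2). Some list genes and a sequence are not reported here. Members, lists and motifs were chosen with earlier results of these data known. Counts vary by more than counting error between replicates (46 pairs, chi-square per degree of freedom 2.1 to 15.1), so no library was a copy of another in its group.

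The labels tie both regions to the same mouse, so the regions are paired. The main fits had no mouse term, and those with the mouse as a replicate block are given as alternatives. Same-mouse residuals over genes correlated between -0.229 and 0.285. Mice are the replicates, and litter is not in the labels.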

Additional observations from a re-analysis of the deposited data

Results flagged for a closer look

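In each of the 4 groups the highest or lowest library of every member was set against the rest of its group, by its gap to the nearest library over the whole range. Of 40 such groups 5 held a library that stood apart by Dixon's 95% critical value. That value flags about 1 in 20 groups of normally distributed values. CPM on a linear scale from low counts is skewed, so the rate for these data is not known. The spread between GA-Camk2a libraries was known when the 10 genes were chosen, so the count describes them and is no test against that rate. The cause was not tested for any of them.

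GA-Camk2a mouse 16 was the library that stood apart for Ccl12 in hippocampus, at 80.8 CPM with the next at 27.2 CPM, and for Ccl5 in cortex, at 71.9 CPM with the next at 16.2 CPM, and in hippocampus, at 52.5 CPM with the next at 11.3 CPM. For Ccl9 it was control 37 in hippocampus, at 43.3 CPM with the next at 2.92 CPM, and GA-Camk2a mouse 34 in hippocampus, at 68.3 CPM with the next at 21.5 CPM. With counts thinned to the smallest library 8 of the groups held such a library.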

How the results depend on the processing

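Genotype differences of the members moved by less than the spread between replicates in 130 of 135 values in cortex and 183 of 187 in hippocampus. The others were, in cortex, batch 2 alone with Ccl12 at 4.35, Ccl3 at 5.06, Ccl6 at 3.1 and Cxcl16 at 3.097, and Ccl3 at 4.91 without control 38, and in hippocampus Cxcl16 at 1.87 thinned, Ccl9 at 2.43 without control 37 and Ccl12 at 2.37 and Ccl5 at 1.82 without GA-Camk2a 16. Ccl9 in hippocampus was the one that changed sign. Members called fell to 1 in each region with 10 counts required in every library, which left fewer members in the test, and in hippocampus to 5 thinned and 3 in batch 1. With 1 library left out 6 to 8 were called in cortex and 8 to 9 in hippocampus. Pathway genes outside the 10 also lost calls under the other alternatives. In cortex Ifnar2, Ifngr1, Myd88 and Tnfrsf1a were called in 7 of 10 such fits, Rac2 in 8 and Cx3cr1 in 10. Ackr1 was called in 5 of 10 in cortex and 5 of 11 in hippocampus.

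Genes called in cortex were 1064 thinned, 876 in batch 1, 230 in batch 2 and 1038 (without control 31) to 1526 with 1 library left out, against 1635. In hippocampus they were 953, 115, 681 and 1038 (without control 31; 1082 without control 20) to 1831, against 1628. Between regions in controls they were 1377 thinned, 1241 in batch 1, 1314 in batch 2 and 1580 to 3168 with 1 library left out, against 2351. In GA-Camk2a mice they were 2585 in batch 1, 1353 in batch 2 and 3668 to 4262, against 4350. For the interaction they were 159 unfiltered, 127 with DESeq2, 36 without the batch term, 16 thinned, 30 without the 3 hippocampus libraries high in Ccl9 and 22 to 66 with 1 library left out, against 59. The batches of the region comparisons and the 3 libraries were chosen after seeing the data. Members called between regions in controls were 0 in batch 1, 0 in batch 2 and 0 to 1 with 1 library left out, and in GA-Camk2a mice 4 unfiltered, 1 with 10 counts in every library, 1 with DESeq2, 1 thinned and 2 to 4 with 1 library left out.

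Signs turned in values that did not pass. In controls Ccl12 was at -0.0041 with DESeq2 size factors, -0.069 with DESeq2, -0.0092 with limma-voom, -0.069 without the batch term and -0.20 to 0.23 with 1 library left out, and Ccl6 at -0.27 to 0.093. In GA-Camk2a mice batch 1 gave Ccl12 0.45 and Ccl5 0.86, batch 2 Ccl2 -0.55 and Cxcl10 -1.36, the 3 libraries left out Ccl12 0.017, Ccl5 0.23 and Cxcl16 0.0091, and 1 library left out Ccl5 -1.44 to 0.78. For the interaction limma-voom gave Ccl9 0.030, the 3 libraries left out Ccl12 0.16, Ccl5 0.34 and Ccl6 0.083, and 1 library left out Ccl4 -0.84 to 0.13, Ccl5 -1.39 to 0.41, Ccl6 -0.38 to 0.18, Ccl9 -1.61 to 1.41 and Cxcl10 -0.062 to 1.18. Same-mouse r with 1 mouse left out ran from -0.065 to 0.80 for Ccl3, -0.16 to 0.77 for Ccl4 and -0.78 to 0.45 for Cxcl10. Thinned, 8 groups held an outlying library. The cause was not tested.

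With the mouse as a replicate block, which pairs the regions, Ccl12 was at -0.19 and Ccl6 at 0.10 in controls, and Cx3cl1 at -0.38 (edgeR, adjusted p = 0.0158). Cxcl16 in controls was at 1.185 (edgeR, adjusted p = 0.106). In GA-Camk2a mice the block gave Ccl9 1.55 (adjusted p = 0.00982) and brought Ccl12 past the threshold, at -0.51 (adjusted p = 0.0496), and it changed no other member's call. Ccl5 in GA-Camk2a mice was then at -0.56 (edgeR, adjusted p = 0.0598). Low control counts limit the ratios of the members other than Cx3cl1. The level of 3 counts was a floor set beforehand, and a limit of detection was not measured.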
